A study of Homo sapiens with 12 samples.

Results

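The lincRNAs made in human neural progenitors are described here: long intergenic noncoding RNAs, typed as lincRNA in the deposited table, whose mean level reached 5 TPM in at least 1 of 4 groups, the SOX21-/- and wild-type cells at day 4 and at day 8 of neural differentiation. TPM is a length-corrected unit in which all genes of one library add up to the same total. Of 7520 lincRNAs among 58219 genes, 583 met this rule, with MEG3, MEG8 and H19 left out by name. The levels at days 4 and 8 chose the members, so their levels there, and the steps between days, are descriptions, and only the genotype comparison at day 0 uses values that the rule did not. A threshold of 10 TPM would have kept 295 lincRNAs and one of 2 TPM 1274.

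Poly(A) RNA was sequenced from H9, an established human embryonic stem cell line, in 12 libraries: SOX21-/- cells (labels S13 and S23) and wild-type cells (labels WT1 and WT2), each at days 0, 4 and 8. The study asked what SOX21, a SOX-family transcription factor of neural progenitors, does in early neural differentiation. How the SOX21-/- cells were made, whether S13 and S23 are separate clones, and the culture conditions are not given in the sources used here. SOX21 mRNA itself was not lower in the SOX21-/- libraries, which held 253 (S13) and 69.9 (S23) TPM at day 8 while the wild-type libraries held 129 and 100 TPM, so its level does not check the label, and SOX21-/- is used below as the name of that label. Each group has 2 libraries, nothing in the labels says that they came from separate cultures, and a p-value here speaks only of the spread between them, which may be technical.

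LincRNAs are capped, spliced and mostly polyadenylated transcripts without a long coding frame, usually made at lower levels and in fewer cell types than mRNAs. Some act at a distance, as scaffolds or decoys for proteins and small RNAs. Others lie beside the gene of a developmental transcription factor and are made from a promoter or enhancer close to it, and some carry a microRNA within their introns or exons. In the developing forebrain several lie next to regional factors such as SIX3.

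The pluripotency factor POU5F1 had 1507 to 1744 TPM at day 0, 20.5 to 32.4 TPM at day 4 and at most 1.41 TPM at day 8, and NANOG had 18 to 24.7 TPM at day 0 and at most 0.236 TPM later. The summed level of 6 pluripotency markers was 2510 to 2684 TPM at day 0, 1001 to 1086 TPM at day 4 and 707 to 837 TPM at day 8, and most of the later sums came from LIN28A, which was higher after day 0 (148 to 176 TPM at day 0, 844 to 952 TPM at day 4, 608 to 701 TPM at day 8). The sum of 8 neural progenitor markers was 107 to 119 TPM, 1076 to 1454 TPM and 1729 to 2076 TPM at the same days. Summed markers of neural crest, of mesoderm and endoderm, and of surface ectoderm were each at or below 5.2 TPM in every library. The 6 neuron markers summed to 45.0 to 71.3 TPM in SOX21-/- and 91.8 to 98.8 TPM in wild-type cells at day 8. STMN2 and DCX were the lower ones in both SOX21-/- libraries, while ELAVL3 (9.16 and 2.69 TPM in SOX21-/- cells, against 1.5 and 1.4 TPM in wild-type cells) and ELAVL4 (2.95 and 2.05 TPM, against 0.828 and 0.259 TPM) were higher there and INA overlapped. Their part in the differences below was not tested, and in bulk RNA fewer cells of a type and less RNA per cell cannot be told apart. Nuclear protein-coding genes held 55.9% to 56.4% of all TPM at day 0 and 83.5% to 87.1% later, so levels at day 0 and later are shares of differently filled totals.

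Most members are little-known transcripts that sit close to coding genes. Clone-style names, such as RP11-299H22.6, belonged to 396 of the 583. Of 576 found in the GENCODE v29 annotation of GRCh38, 354 started within 50 kb of the start of a protein-coding gene, 121 lay head to head with one within 5 kb, and 124 overlapped one. A single annotated exon was given for 137. These counts were not made for the other lincRNAs of the table, so they show nothing particular to the members. Chromosomes 17 and 19 held 7.38% and 6.52% of the members, beside 4.51% and 3.19% of all lincRNAs in the table. Among other chromosomes, X held 3.26% beside 1.83%, and chromosome 4 held 3.26% beside 5.43%. In 66 of the 576, at least 50% of the 31-base words of the transcripts also occurred in transcripts of other genes, so their levels depend on how shared reads were divided, and without a stated use of strand the levels of overlapping genes are uncertain too. The members just above the threshold were BANCR (5.0 TPM), RP11-667K14.3 (5.01 TPM) and LINC01473 (5.01 TPM), and those just below it AC002511.2 (4.997 TPM), CTD-2105E13.16 (4.97 TPM) and KB-1507C5.4 (4.97 TPM).

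Levels were uneven. The members together held 0.610% to 1.34% of all TPM at days 4 and 8, and 0.223% to 0.325% at day 0. The share of 1.34% was that of WT2 at day 8, where WT1 had 0.934%. Only 43 reached a mean of 50 TPM in one of the 4 groups and 15 reached 100 TPM. The highest mean over days 4 and 8 was that of CH507-513H4.3, CH507-513H4.4 and CH507-513H4.6 (540 TPM). The 31-base words of these chromosome 21 entries are all shared, and their values are nearly the same in every library. In wild-type cells at day 8 their libraries stood at 286 and 1770 TPM, and each entry counts towards the shares above. Next came MALAT1, an RNA of nuclear speckles (352 TPM), MIAT, a nuclear RNA of neural cells (272 TPM), CH507-154B10.2 (201 TPM), RP11-553A10.1 (170 TPM), RP4-669L17.10 (144 TPM), CRNDE, which lies head to head with IRX5 (142 TPM), and LINC01896, head to head with SALL3 (106 TPM). Replicates were close for most members: the libraries of a group differed at least 2-fold, on log2(TPM + 1), for 24 to 83 of the 583.

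SOX21-/- and wild-type cells were set against each other at day 8 first, where most differences lay. All tests used limma on log2(TPM + 1) over 24248 genes, with Benjamini-Hochberg adjustment in each comparison, and a gene was called at an adjusted p under 0.05. At day 8, 26 of the 583 were called, 10 higher and 16 lower in SOX21-/- cells, which is 4.46% of the members beside 2.79% of all genes tested (1.47% higher and 1.32% lower). Of the 26, 11 reached 5 TPM in both genotypes, 8 in wild type only and 7 in SOX21-/- cells only, and 17 were under 1 TPM in every day 0 library. A member that reached the threshold in one genotype only had to be higher there, so these counts describe the members and show nothing particular to them. The median difference over the 583 was 0.00 on the log2 scale, as it was over all genes. Both SOX21-/- libraries lay above both wild-type libraries for 147 members and below them for 147, which is 25.2% each way beside 21.4% and 21.7% of all genes tested.

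**Figure D1:**
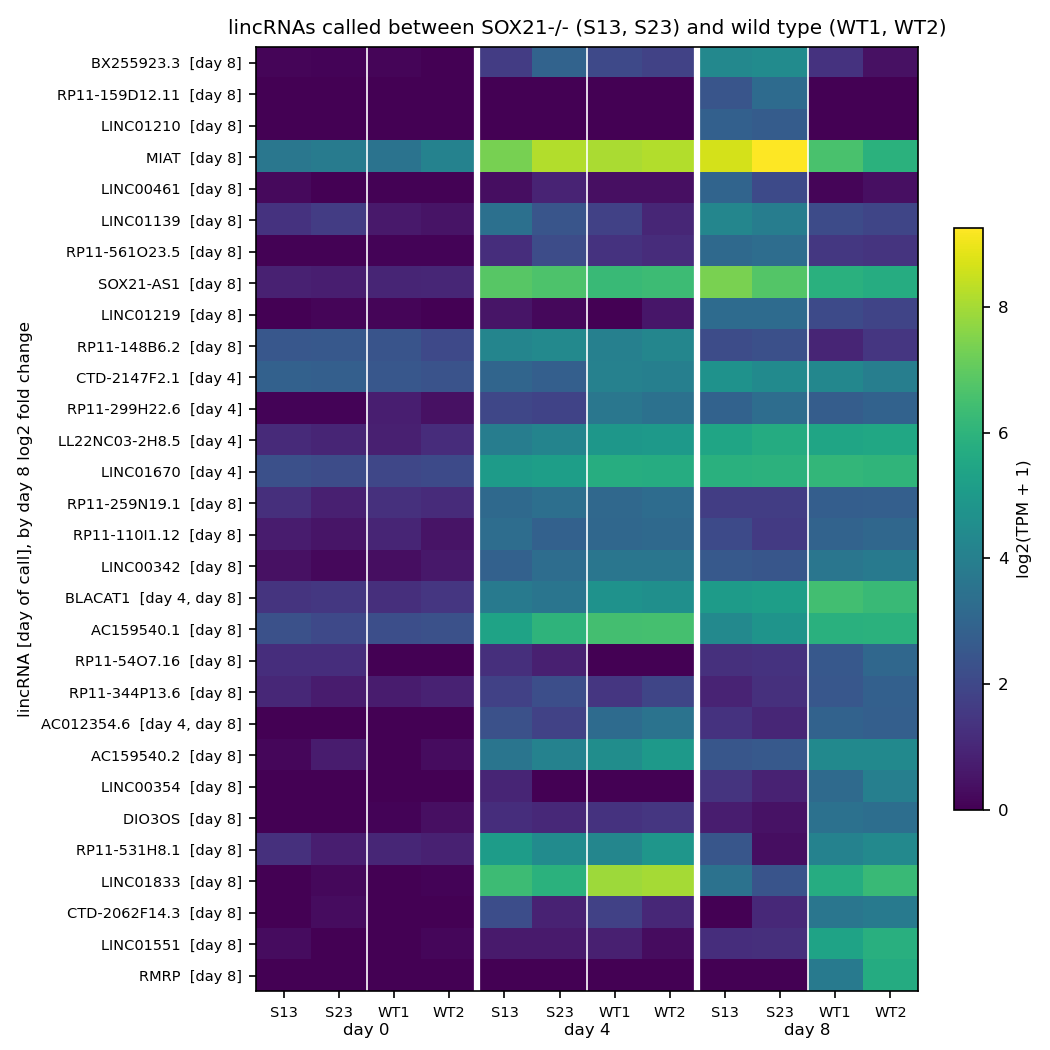
Heat map of log2(TPM + 1) for the 30 lincRNAs called between SOX21-/- and wild type at day 4 (6), day 8 (26) or both (2), one row each, ordered by the day 8 log2 fold change; columns are the 12 libraries by day, S13 and S23 left of WT1 and WT2. At day 0 most rows are near 0 in all 4 libraries, and at day 8 the top rows are brighter in S13 and S23 and the bottom rows in WT1 and WT2.

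The lincRNAs with large losses in SOX21-/- cells at day 8 included LINC01551 and a pair beside SIX3. LINC01551 (ENSG00000186960.10, chr14:28772704-28813453, plus strand) had 1.32 and 1.35 TPM in SOX21-/- cells at day 8, against 40.5 and 56.6 TPM in wild-type cells. At day 4 it had 0.586 and 0.588 TPM in SOX21-/- cells and 0.774 and 0.228 TPM in wild-type cells. The genotypes thus overlapped at day 4 and were far apart at day 8, with a log2 fold change of -4.39 ± 0.25 (SE, adjusted p = 0.000204).

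LINC01833 (ENSG00000259439.2, chr2:44921077-44939199, minus strand) lies head to head with SIX3, a factor of the anterior forebrain and eye field, with 2.70 kb between the starts. It had 80.8 and 58.9 TPM in SOX21-/- cells at day 4, against 236 and 258 TPM in wild-type cells. At day 8 it had 10.2 and 4.34 TPM in SOX21-/- cells, against 52.0 and 76.3 TPM in wild-type cells. SOX21-/- libraries were below wild-type libraries at both days, and the difference passed the test at day 8 (-3.05 ± 0.33, adjusted p = 0.00355) but not at day 4 (-1.82 ± 0.33, adjusted p = 0.0570). AC012354.6, on the far side of SIX3 with its start 12.8 kb away, had 1.54 and 1.0 TPM in SOX21-/- cells at day 8, against 6.58 and 5.91 TPM in wild-type cells (-1.68 ± 0.22, adjusted p = 0.00710). SIX3 itself had 12.2 and 7.79 TPM in SOX21-/- cells at day 8, against 46.0 and 58.2 TPM in wild-type cells.

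The promoter windows of LINC01551 and LINC01833 are shown because these RNAs had large losses that held when any one library was left out, and because SOX factors bind a short shared core. Each runs from 250 bases before to 50 after the start that RefSeq gives on GRCh38.p14, written 5′ to 3′ on the gene's strand, with the SOX core ACAAT, in either orientation, in capitals.
LINC01551, chr14:28772454-28772753, plus strand: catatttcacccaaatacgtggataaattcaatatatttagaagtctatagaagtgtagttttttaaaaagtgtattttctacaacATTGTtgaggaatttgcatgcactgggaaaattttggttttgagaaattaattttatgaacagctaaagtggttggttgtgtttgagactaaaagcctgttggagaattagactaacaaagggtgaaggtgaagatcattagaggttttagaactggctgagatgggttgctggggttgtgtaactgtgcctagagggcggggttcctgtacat
LINC01833, chr2:44939150-44939449, minus strand: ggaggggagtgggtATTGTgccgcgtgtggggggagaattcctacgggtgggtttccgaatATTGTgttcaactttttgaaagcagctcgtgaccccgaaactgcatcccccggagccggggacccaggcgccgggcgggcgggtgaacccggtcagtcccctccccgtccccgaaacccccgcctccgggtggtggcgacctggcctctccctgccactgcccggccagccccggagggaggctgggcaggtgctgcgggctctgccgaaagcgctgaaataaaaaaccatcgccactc
LINC01551's window, at 36.7% G and C, held ACAAT once and the TCF core CTTTG once, while LINC01833's, at 66.3%, held ACAAT 2 times and CTTTG in 0 places. The windows of DIO3OS and LINC01210 held neither. Both strands were searched, and these motifs cannot overlap each other. ACAAT occurred in 28.0% of all 27305 RefSeq windows and in 27.9% of the 147 belonging to members, and CTTTG in 47.6% and 53.7%, so a match in one window is common.

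Other transcripts lower in SOX21-/- cells at day 8 lie in and beside the imprinted DLK1-DIO3 region of chromosome 14. DIO3OS (ENSG00000258498.8, chr14:101552221-101560431, minus strand), head to head with DIO3, the enzyme that inactivates thyroid hormone, had 0.688 and 0.365 TPM in SOX21-/- cells, against 9.93 and 9.24 TPM in wild-type cells. Its libraries were close to each other within each genotype and differed by -2.80 ± 0.20 (adjusted p = 0.000432). DIO3 had 0.889 and 0.284 TPM in SOX21-/- cells, against 19.3 and 21.7 TPM in wild-type cells. CTD-2062F14.3, which overlaps BEGAIN on the opposite strand, had 0 and 1.08 TPM in SOX21-/- cells, against 11.4 and 13 TPM in wild-type cells (adjusted p = 0.0143). BEGAIN fell as well, with 9.23 and 5.34 TPM in SOX21-/- cells and 103 and 91.5 TPM in wild-type cells.

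Among the higher expressed members, BLACAT1 (ENSG00000281406.1, chr1:205434886-205437879, minus strand), a single-exon RNA that overlaps LEMD1 on the same strand, had 32.4 and 35.6 TPM in SOX21-/- cells at day 8, against 85.5 and 75.5 TPM in wild-type cells (-1.22 ± 0.13, adjusted p = 0.00346). AC159540.1, AC159540.2 and LINC00342, in the part of chromosome 2 that holds the ANKRD36 gene copies, fell by 1.34, 1.85 and 1.20 on the log2 scale, and 48% to 64.4% of their 31-base words occur in other genes. LINC00354, RP11-54O7.16, RP11-344P13.6, RP11-531H8.1, RP11-110I1.12 and RP11-259N19.1 were also lower, with mean levels of 1.15 to 2.61 TPM in SOX21-/- cells, against 5.37 to 17.9 TPM in wild-type cells. RP11-54O7.16 was listed at 0 in the wild-type libraries of days 0 and 4, where the SOX21-/- libraries had 0.735 to 1.4 TPM, and at day 8 had 1.45 and 1.58 TPM in SOX21-/- cells, against 4.89 and 7.56 TPM in wild-type cells. RMRP, the RNA of the RNase MRP enzyme, which is not normally polyadenylated, was listed at 0 in every library except the wild-type ones of day 8, where it had 12.8 and 50.4 TPM. As 98.3% of its 31-base words occur in other transcripts, its value is uncertain.

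The lincRNAs higher in SOX21-/- cells at day 8 were led in level by MIAT. MIAT (ENSG00000225783.6, chr22:26646428-26676475, plus strand) had 11.7 and 13.5 TPM in SOX21-/- cells at day 0, 163 and 293 TPM at day 4 and 400 and 608 TPM at day 8. In wild-type cells it had 10.4 and 16.0 TPM at day 0, 268 and 287 TPM at day 4 and 95.9 and 59.6 TPM at day 8. The genotypes overlapped at days 0 and 4, and after day 4 it rose further in SOX21-/- cells (1.17 ± 0.34, adjusted p = 0.0378) and fell in wild-type cells (-1.86 ± 0.34, adjusted p = 0.0121). At day 8 it averaged 504 ± 147 TPM in SOX21-/- cells and 77.7 ± 25.7 TPM in wild-type cells (SD, n = 2 each), a log2 fold change of 2.69 ± 0.34 (adjusted p = 0.00642).

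LINC00461 (ENSG00000245526.10, chr5:88507546-88691041, minus strand) spans the gene of the microRNA miR-9-2, a regulator of neural progenitors. Its mature products (chr5:88666902-88666924 and chr5:88666866-88666887, minus strand) are shown because the lincRNA's span includes their hairpin, with the seed (bases 2 to 8) in capitals and the sequences from RefSeq on GRCh38.p14.
hsa-miR-9-5p: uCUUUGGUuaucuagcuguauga
hsa-miR-9-3p: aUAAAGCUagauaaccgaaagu
LINC00461 had 6.96 and 3.25 TPM in SOX21-/- cells at day 8, against 0.0826 and 0.301 TPM in wild-type cells. It was under 1 TPM in every library of days 0 and 4, and it rose after day 4 in SOX21-/- cells by 1.91 ± 0.33 (adjusted p = 0.00465). The difference between genotypes at day 8 was 2.29 ± 0.33 (adjusted p = 0.0108). Poly(A) RNA does not measure the mature microRNAs. In the hairpin list searched, 14 members held 20 annotated microRNA hairpins, and MIR124-2HG, described below, was not among these members.

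LINC01210 (ENSG00000239513.5, chr3:137771949-137780878, plus strand), 7.67 kb from SOX14, a SOX-family gene of brain interneurons and diencephalon, was listed at 0 in the 10 other libraries and had 6.13 and 5.41 TPM in SOX21-/- cells at day 8 (adjusted p = 0.000321). SOX14 had 3.40 and 5.06 TPM in the same SOX21-/- libraries and was listed at 0 in the wild-type ones. The short single-exon RP11-159D12.11 showed the same pattern, with 4.37 and 8.48 TPM in SOX21-/- cells at day 8 and 0 listed elsewhere (adjusted p = 0.00189). A fold change cannot be given for either, since the values it would be taken against are 0.

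SOX21-AS1, head to head with SOX21 at 0.317 kb, had 165 and 108 TPM in SOX21-/- cells at day 8, against 57.2 and 52.1 TPM in wild-type cells (1.28 ± 0.18, adjusted p = 0.00987). LINC01139 had 18.1 and 14.2 TPM in SOX21-/- cells, against 3.34 and 2.83 TPM in wild-type cells (2.06 ± 0.36, adjusted p = 0.0239). Its SOX21-/- libraries were also the higher ones at days 0 and 4, where the difference did not pass the test. BX255923.3 and RP11-561O23.5, both near FOXD4-like gene copies on chromosome 9, averaged 19.9 and 8.45 TPM in SOX21-/- cells, against 0.926 and 1.73 TPM in wild-type cells, with 92.6% and 55.1% of their 31-base words shared. LINC01896, beside SALL3, had 99.2 and 269 TPM in SOX21-/- cells, against 35.8 and 22.2 TPM in wild-type cells, and missed the threshold (2.49 ± 0.55, adjusted p = 0.0574). LINC01219 and RP11-148B6.2 differed least of those called higher, by 1.26 and 0.98 on the log2 scale.

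**Figure D2:**
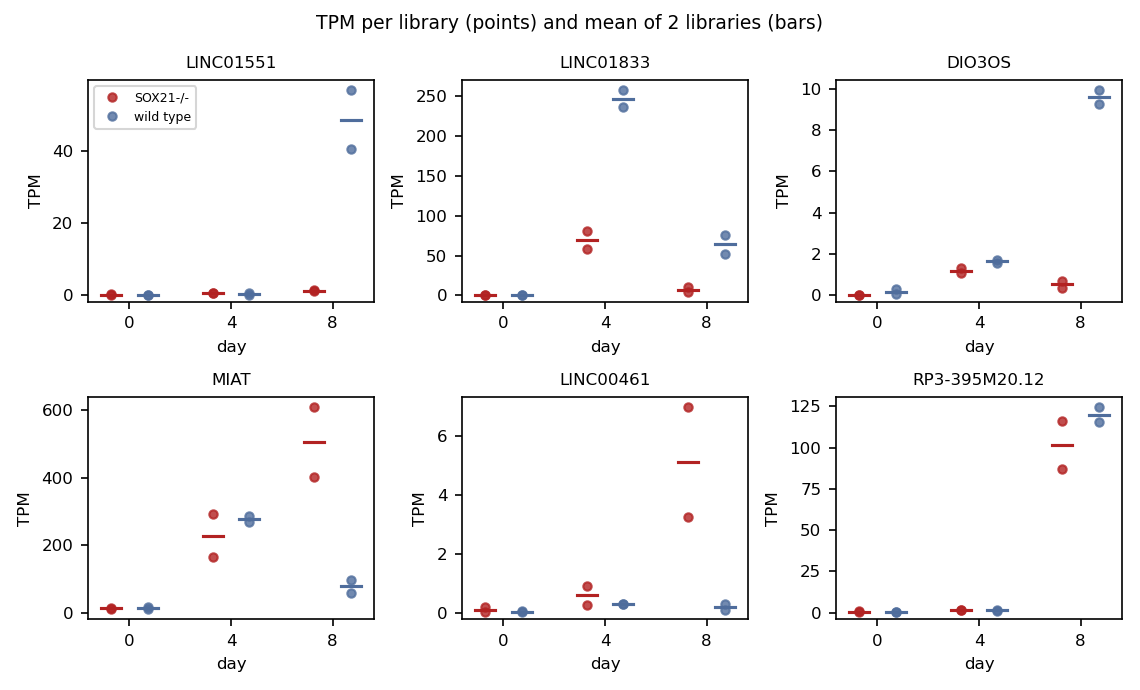
TPM of 6 lincRNAs at days 0, 4 and 8, with a point for each library, a bar for the mean of 2 libraries, SOX21-/- in red left of wild type in blue. At day 8 LINC01551, LINC01833 and DIO3OS are lower in SOX21-/- cells, MIAT and LINC00461 are higher, and for RP3-395M20.12 the SOX21-/- points (86.8 and 116 TPM) overlap the wild-type points (124 and 115 TPM).

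These calls use a spread estimated over all 12 libraries, earlier days included, at which many of these RNAs were at or near 0. With the 4 day 8 libraries alone, 0 of the 583 were called, and the adjusted p of the 26 ran from 0.0548 for LINC01210 to 0.300 for RP11-148B6.2. Of the 26, 9 stayed called when any single library was left out: LINC01551, LINC01833, AC012354.6, DIO3OS, BLACAT1, RMRP, LINC01210, RP11-159D12.11 and BX255923.3. MIAT lost its call without WT2 or S23 of day 8 (adjusted p of 0.0511 to 0.0519), LINC00461 without either wild-type library of day 8 (0.0531 to 0.0581) and SOX21-AS1 without WT2 of day 8 (0.0782). CTD-2062F14.3 lost its call without S13, WT1 or WT2 of day 8 (0.0624 to 0.0973), and LINC01139 without any one of the 4 (0.0819 to 0.141). The others each lost their call without at least one day 8 library. Of these, RP11-110I1.12, RP11-148B6.2, RP11-531H8.1 and LINC01219 also lost it without any one day 0 library, though the comparison does not involve that day. The number called was 20 without S13 of day 8, 14 without S23, 17 without WT1 and 12 without WT2.

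Several called lincRNAs differed together with their nearest coding gene at day 8. Of 13 called members whose nearest coding start was within 50 kb and tested, 7 had a called neighbour, and in all 7 pairs both differed in the same direction: LINC01833 and AC012354.6 with SIX3, DIO3OS and DIO3, CTD-2062F14.3 and BEGAIN, BLACAT1 and LEMD1, LINC01210 and SOX14, and MIAT and CRYBA4. Over these 13 the signs were the same in 9 pairs and opposite in 4, where the neighbour was not called: RP11-110I1.12 and CCDC84 (-1.19 and 0.66), LINC01219 and MRPL23 (1.26 and -0.40), RP11-159D12.11 and CUEDC1 (2.84 and -0.40) and RMRP and CCDC107 (-4.73 and 0.01). LINC01210, RP11-159D12.11 and RMRP were listed at 0 in a whole genotype at day 8, so their values here depend on the pseudocount. CRYBA4 was low at day 8, with 1.84 and 2.08 TPM in SOX21-/- cells, against 0.209 and 0.411 TPM in wild-type cells. At day 4 it was called higher in SOX21-/- cells (1.37) while MIAT was not called (-0.34). After day 4 it fell in SOX21-/- cells (-1.24) while MIAT rose (1.17), and in wild-type cells both fell. Across all near pairs, called or not, 7.69% of the neighbours were called, and across the far pairs 5.49%. Across 312 pairs within 50 kb the Pearson correlation of the day 8 log2 fold changes was 0.49 and Spearman's rho 0.25, against -0.03 and -0.04 across 164 pairs farther apart. BLACAT1 and CTD-2062F14.3 overlap their neighbours, and whether shared reads moved both genes of these pairs was not tested. Over the 218 near pairs whose lincRNA overlaps no coding gene, both genes were called in 5, and the Pearson correlation was 0.46. Over all pairs, with and without overlap, the Pearson correlation at day 4 was 0.32 near and 0.19 far, and at day 0 -0.04 near and -0.07 far. These values describe genes that share the same libraries, some pairs share a neighbour, and most of the near pairs lie close to 0 on both axes.

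**Figure D3:**
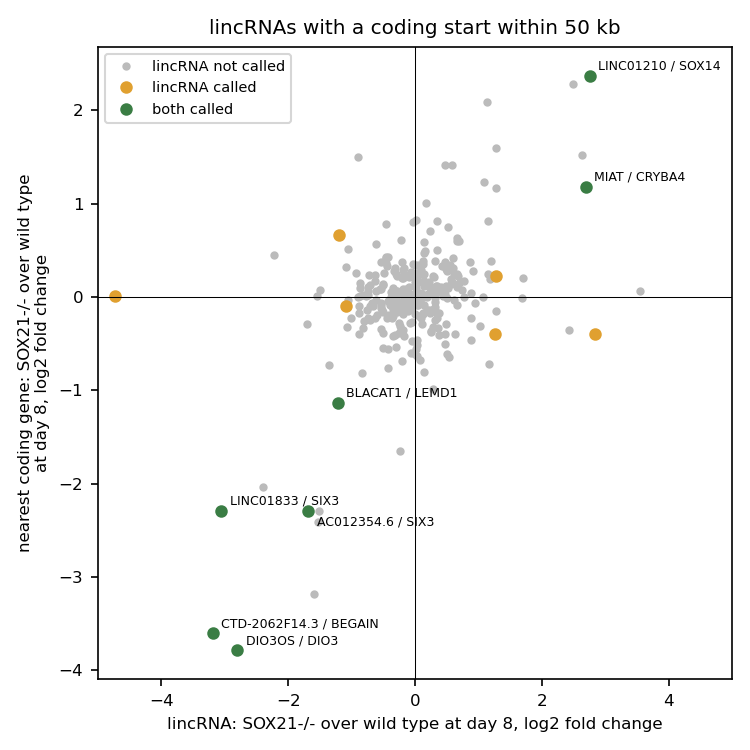
Log2 fold change of SOX21-/- over wild type at day 8 for each lincRNA (x axis) and its nearest coding gene (y axis), for 312 pairs with starts within 50 kb. The 7 pairs called for both genes lie in the lower left, from BLACAT1 and LEMD1 down to DIO3OS and DIO3, and in the upper right, with LINC01210 and SOX14 and with MIAT and CRYBA4.

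At day 4 the members were shifted downward in SOX21-/- cells, and few single RNAs were called. Of the 583, 6 were called, all lower, beside 0.775% of all genes tested (0.239% higher and 0.536% lower). Of the 6, 5 reached 5 TPM in both genotypes and 1 in wild type only. Over all members, 103 reached it in wild type only and 63 in SOX21-/- cells only. Day 4 levels were among those that chose the members, so the shift is a description and shows nothing particular to them. The median difference was -0.32 on the log2 scale over the members and -0.12 over all genes tested. Both SOX21-/- libraries lay below both wild-type libraries for 250 members, which is 42.9% of them beside 33.8% of all genes tested, and above for 44, beside 11.1%. The median member had 4.45 and 5.26 TPM in SOX21-/- cells, against 6.16 and 6.13 TPM in wild-type cells. Median-of-ratios scaling moved the median over all genes to 0.00 and that over members to -0.16, and quantile normalization moved it over members to -0.10. Without S13 of day 4 it was -0.21 over members and -0.10 over all genes.

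RP11-299H22.6, a lincRNA of chromosome 15, had 2.88 and 2.65 TPM in SOX21-/- cells at day 4, against 11.6 and 9.93 TPM in wild-type cells (-1.64 ± 0.21, adjusted p = 0.0194). At day 8 it had 6.52 and 8.93 TPM in SOX21-/- cells and 5.64 and 6.55 TPM in wild-type cells, where the groups overlapped. CTD-2147F2.1, also of chromosome 15, had 7.02 and 5.97 TPM in SOX21-/- cells at day 4, against 15.6 and 15.0 TPM in wild-type cells (-1.13 ± 0.16, adjusted p = 0.0289), and its SOX21-/- libraries were above the wild-type ones at days 0 and 8. LL22NC03-2H8.5 and LINC01670, the second with 97.6% of its 31-base words shared, differed by -0.92 and -0.61 at day 4 and by 0.10 and -0.18 at day 8.

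AC012354.6 beside SIX3 (-1.32 ± 0.22, adjusted p = 0.0469) and BLACAT1 (-0.97 ± 0.13, adjusted p = 0.0255) were the 2 called at both days, lower each time. The day 4 call of AC012354.6 was lost whichever of the 12 libraries was left out (adjusted p of 0.0535 to 0.222), and that of BLACAT1 without WT1, WT2 or S23 of day 4 (0.0621 to 0.116). None of the 6 calls of day 4 held under every alternative. The number called was 0 without WT1 or WT2 of day 4, 4 without S23 of day 4 and 7 without S13 of day 4, 2 without any one day 0 library, 4 without S13 or S23 of day 8, and 0 with the day 0 and day 8 libraries left out. Under median-of-ratios scaling 1 was called lower, and under quantile normalization 1 was called higher.

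**Figure D4:**
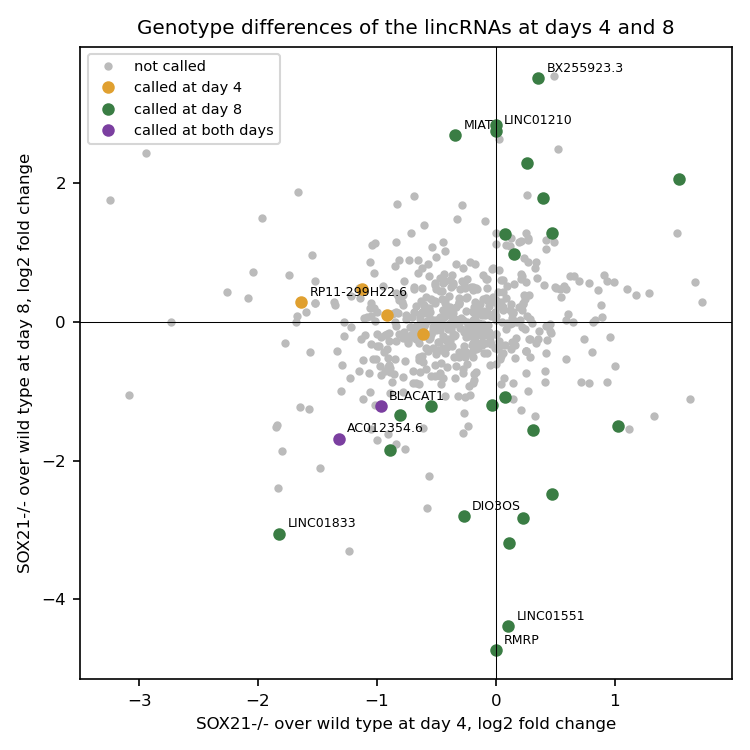
Log2 fold change of SOX21-/- over wild type at day 4 (x axis) and day 8 (y axis) for the 583 lincRNAs, coloured by the day of the call. Most points lie left of 0 at day 4 and on both sides of 0 at day 8; AC012354.6 and BLACAT1 were called at both days, and LINC01551, DIO3OS and MIAT lie near 0 at day 4.

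At day 0, in stem cells, limma called 0 of the 583 between genotypes, beside 0.384% of all genes tested, and 32 had an unadjusted p under 0.05. Both SOX21-/- libraries lay above both wild-type ones for 106 members (18.2%, beside 15.7% of all genes tested) and below for 82 (14.1%, beside 14.0%). Most members were scarce in stem cells: 233 were under 1 TPM in all 4 libraries, 34 of these were listed at 0 in all 4, and 89 had a mean of at least 5 TPM in either genotype. The median member had 0.824 to 0.894 TPM. PVT1, the neighbour of MYC, was among the best expressed, at 183 and 205 TPM in SOX21-/- cells and 161 and 158 TPM in wild-type cells.

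From day 0 to day 4 most members rose in both genotypes, as the rule favours. Between those days 413 changed in SOX21-/- cells, 401 higher and 12 lower (70.8%, beside 60.6% of all genes tested, 48.1% higher and 12.5% lower), and 463 in wild-type cells, 450 higher and 13 lower (79.4%, beside 65.7%, 54.3% higher and 11.4% lower). The median step was 1.40 in SOX21-/- cells and 1.76 in wild-type cells on the log2 scale, beside 0.72 and 0.91 over all genes tested. Median-of-ratios scaling brought the medians over all genes to 0.01 and 0.04 and those over members to 0.73 and 0.95, with 233 higher and 45 lower in SOX21-/- cells and 283 higher and 35 lower in wild-type cells. The genotypes shared 385 of the RNAs that rose, which is 96.0% of those of SOX21-/- cells and 85.6% of those of wild type.

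The members that rose most by day 4 included neighbours of neural transcription factors. LINC01833 rose by 6.02 ± 0.33 in SOX21-/- cells and 7.89 ± 0.33 in wild-type cells, and SOX21-AS1 rose by 5.94 ± 0.18 in SOX21-/- cells and 5.33 ± 0.18 in wild-type cells. LINC01833 then fell again by day 8, by 3.18 in SOX21-/- cells and by 1.95 in wild-type cells. CRNDE had 89.8 and 136 TPM in SOX21-/- cells at day 4, against 1.44 and 2.15 TPM at day 0, and 101 and 114 TPM in wild-type cells at day 4, against 2.32 and 3.45 TPM at day 0. LINC00404, 39.2 kb from SOX1, was listed at 0 in every day 0 library and had 16.1 and 41.7 TPM in SOX21-/- cells and 11.0 and 14.3 TPM in wild-type cells at day 4. RP11-496H1.2, a lincRNA of chromosome 3, had 51.3 and 42.3 TPM in wild-type cells at day 4, against 0.905 and 0.458 TPM at day 0, and 29.3 and 16.2 TPM in SOX21-/- cells at day 4, against 0.910 and 1.81 TPM at day 0. MIR124-2HG, the host of a neuronal microRNA, rose by 4.08 ± 0.19 in SOX21-/- cells and 3.91 ± 0.19 in wild-type cells. Among the largest steps of SOX21-/- cells was RP11-82L7.4, whose nearest coding gene, 114 kb away, is FOXB1, a factor of the early brain. It had 28.1 and 44.1 TPM there at day 4 and 1.82 and 0.363 TPM at day 8. In wild-type cells it was also called higher by day 4 (3.32) and lower after it (-2.75). Its genotype difference did not pass limma's test at day 4 (1.74, adjusted p = 0.0849) or day 8 (0.28, adjusted p = 0.804). FOXB1 itself was called higher in SOX21-/- cells at day 4 (3.02) and day 8 (2.60).

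SOX1 has another member beside it: LINC00403 had 4.69 and 9.22 TPM in SOX21-/- cells at day 4 and 17.3 and 19.6 TPM at day 8, and 2.10 and 3.08 TPM in wild-type cells at day 4 and 14.3 and 11.8 TPM at day 8. RP11-275I4.2, whose wild-type step was 5.45 ± 0.59, was low again at day 8, with 2.12 and 0 TPM in SOX21-/- cells and 6.69 and 2.18 TPM in wild-type cells, after 18.4 and 14.2 TPM in SOX21-/- cells and 64.8 and 56.3 TPM in wild-type cells at day 4. Its wild-type fall after day 4 lost its call without WT1 of day 4 (adjusted p = 0.0522).

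Few members fell by day 4. PVT1 had 15.6 and 7.20 TPM in SOX21-/- cells at day 4, against 183 and 205 TPM at day 0, and 11.7 and 14.5 TPM in wild-type cells at day 4, against 161 and 158 TPM at day 0. OLMALINC, near the lipid enzyme gene SCD, fell by 2.34 in SOX21-/- cells and by 2.28 in wild-type cells, and was higher again at day 8 (1.44 and 1.12 above day 4). RP11-677O4.6, RP11-469A15.2 and, in wild-type cells, SNHG25 and RP11-378J18.9 fell as well, by 2.19 to 4.18 on the log2 scale. In SOX21-/- cells RP11-14N7.2, with 73.6% of its 31-base words shared, had 0.580 and 0.626 TPM at day 4, against 13.8 and 9.10 TPM at day 0. RP11-123O10.4 had 0 and 9.90 TPM in SOX21-/- cells at day 4, against 30.2 and 25 TPM at day 0, and its call was lost without S13 of day 4 or either day 0 library (adjusted p of 0.0786 to 0.132). The fall of RP11-469A15.2 was no longer called in wild-type cells without WT2 of day 0 (adjusted p = 0.0558), nor in SOX21-/- cells without S23 of day 0 or of day 4 (0.0702 and 0.0546). In wild-type cells the fall of SNHG25 was lost without WT1 of day 0 or of day 4 (0.126 and 0.135), and that of RP11-677O4.6 without WT2 of day 0 or of day 4.

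From day 4 to day 8, 209 members changed in SOX21-/- cells, 183 higher and 26 lower (35.8%, beside 26.1% of all genes tested, 19.0% higher and 7.15% lower), and 90 in wild-type cells, 72 higher and 18 lower (15.4%, beside 12.6%, 7.62% higher and 4.99% lower). Over the 3 days, 131 members rose at both steps in SOX21-/- cells and 52 in wild-type cells, which is 22.5% and 8.92% of the members beside 10.1% and 4.16% of all genes tested. A further 248 in SOX21-/- cells and 382 in wild-type cells rose by day 4 without a called change after it (42.5% and 65.5%, beside 32.2% and 46.2%). The 50 RNAs that rose after day 4 in both genotypes were 27.3% of those of SOX21-/- cells and 69.4% of those of wild type. The median step was 0.66 in SOX21-/- cells and 0.30 in wild-type cells, beside 0.20 and 0.03 over all genes tested, and the day 4 levels that these steps start from were the lower ones in SOX21-/- cells. At day 8 the median member was alike, at 7.56 and 7.95 TPM in SOX21-/- cells and 7.86 and 7.56 TPM in wild-type cells. Under median-of-ratios scaling 101 were higher and 29 lower in SOX21-/- cells, and under quantile normalization 85 and 41. The wild-type count was 32 and 45 without WT1 and WT2 of day 4 and 40 and 53 without WT1 and WT2 of day 8, and the SOX21-/- count was 137 without S13 of day 4 and 116 without S23 of day 8.

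**Figure D5:**
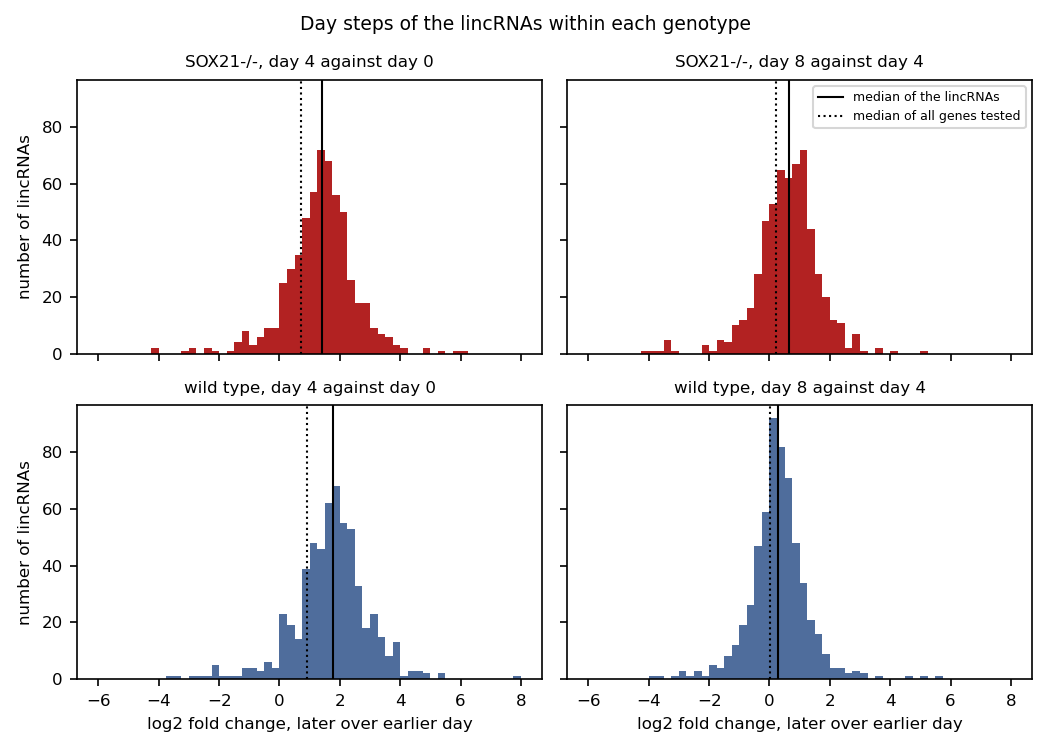
Histograms of the log2 fold change of the 583 lincRNAs between days (later over earlier), SOX21-/- above wild type, with day 4 against day 0 on the left and day 8 against day 4 on the right. Solid lines mark the median of the lincRNAs (1.40 and 0.66 in SOX21-/- cells, 1.76 and 0.30 in wild type) and dotted lines the lower median of all genes tested.

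The largest rise after day 4 was next to a Notch target gene. RP3-395M20.12, whose start lies 181 bases from that of HES5, had 86.8 and 116 TPM in SOX21-/- cells at day 8, against 1.84 and 1.79 TPM at day 4, and 124 and 115 TPM in wild-type cells at day 8, against 1.49 and 1.16 TPM at day 4. It overlaps HES5 on the opposite strand. HES5 had 112 and 128 TPM in SOX21-/- cells and 156 and 157 TPM in wild-type cells at day 8. As the use of strand is not stated, the level of RP3-395M20.12 is uncertain, and whether HES5 reads added to it was not tested. RP11-54O7.17, 2.12 kb from HES4, another target of that pathway, had 20.1 and 22.9 TPM in SOX21-/- cells and 9.44 and 7.20 TPM in wild-type cells at day 8, with at most 1.55 TPM before, and this genotype difference missed the threshold (1.28 ± 0.28, adjusted p = 0.0535). RP11-278H7.4, near the neural repressor gene ZBTB18, was listed at 0 at day 0 and had 13.8 and 23.2 TPM in SOX21-/- cells and 7.75 and 10.9 TPM in wild-type cells at day 8. LINC01405 was listed at 0 in all 4 day 8 libraries after 6.91 to 11.3 TPM at day 4, and AC091493.2, beside the germ-cell gene DAZL, also ended at 0 listed in all 4.

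Other large steps after day 4 differed in how well they held when one library was left out. CTD-2306M5.1, of chromosome 5, kept its call under every alternative tried, with 3.56 and 0 TPM in SOX21-/- cells at day 8, against 30.6 and 16.3 TPM at day 4, and had 13.5 and 12 TPM in wild-type cells at day 8, against 35.1 and 32.7 TPM at day 4. RP11-498P14.4 had 18 and 15.2 TPM in SOX21-/- cells at day 8 and was listed at 0 in both at day 4, and lost its call without S13 of day 8 (adjusted p = 0.0515). In wild-type cells RP11-622O11.4 had 0.163 and 0 TPM at day 8, against 21.6 and 11.9 TPM at day 4. CTC-513N18.7, which overlaps ZNF626 on the same strand, had 7.10 and 9.35 TPM in wild-type cells at day 8 and was listed at 0 at day 4. Each of these wild-type steps lost its call whichever of the 4 wild-type libraries compared was left out (adjusted p of 0.0550 to 0.0910 for RP11-622O11.4 and 0.0581 to 0.0680 for CTC-513N18.7). LINC01023 rose in wild-type cells by 3.01 ± 0.75, a call lost in 9 of the 12 fits with one library left out (adjusted p of 0.0566 to 0.156). In SOX21-/- cells CTD-2129N1.1, head to head with RHOV, rose by 3.65 ± 0.99, and GS1-166A23.1 and RP11-138I1.3 fell by 3.63 and 3.48. The calls of these 3 were lost whichever of the 4 SOX21-/- libraries compared was left out (adjusted p of 0.0580 to 0.150), and that of GS1-166A23.1 also without either wild-type library of day 0.

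Lists of RNAs grouped by known setting gave the following. Some listed genes, such as ESRG, LNCPRESS1, LINC00371 and RMST, are not typed as lincRNA in the deposited table. Of 11 tested genes on the list for pluripotent cells, 10 fell and FIRRE rose from day 0 to day 4 in both genotypes (medians of -3.35 in SOX21-/- cells and -3.11 in wild-type cells). By limma 0 of them were called between genotypes at any day. The members on this list were LINC01405 and FIRRE. Of 9 members on a list of neural lincRNAs, 6 rose and LINC00599 fell by day 4 in SOX21-/- cells, and 6 rose in wild-type cells. Between days 4 and 8, 8 of these 9 rose in SOX21-/- cells, and in wild-type cells 4 rose and MIAT fell. Between genotypes at day 8, LINC00461 and MIAT were higher and LINC01551 lower in SOX21-/- cells, and of the other genes of this list, which hold 17 tested in all, RMST was higher.

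Among widely made lincRNAs none was called between genotypes. Of 11 members on that list, 9 rose and PVT1 fell by day 4 in SOX21-/- cells, and 7 rose and PVT1 fell in wild-type cells. NORAD, which binds PUMILIO proteins and has 56.4% of its 31-base words in other transcripts, had 37.8 and 37.9 TPM in SOX21-/- cells at day 4 and 48 and 47.9 TPM in wild-type cells, and 63.2 and 66.9 TPM in SOX21-/- cells at day 8 and 57.2 and 54.6 TPM in wild-type cells. MALAT1 had 185 and 168 TPM in SOX21-/- cells at day 4, against 347 and 278 TPM in wild-type cells, and 482 and 714 TPM in SOX21-/- cells at day 8, against 366 and 273 TPM in wild-type cells. Its libraries separated in opposite directions at the 2 days, and neither difference passed the test (adjusted p of 0.150 and 0.0998). Of 33 tested hosts of small nucleolar RNAs or microRNAs, 8 of them members, limma called 0 between genotypes at any day. By day 4, 18 of the 33 rose and 3 fell in SOX21-/- cells, and 18 rose and 5 fell in wild-type cells, shares near those of all genes tested (48.1% higher and 12.5% lower in SOX21-/- cells, 54.3% and 11.4% in wild-type cells), with SNHG15 and SNHG19 up and SNHG9 down in both among the members.

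Whether the genotype difference itself changed between days was tested as an interaction. Between days 0 and 4 it changed for 1 member, beside 0.408% of all genes tested, and between days 4 and 8 for 11, beside 1.11%. LINC01551 is an example: its difference was 0.10 on the log2 scale at day 4 and -4.39 at day 8, and its step from day 4 to day 8 was 0.56 ± 0.25 in SOX21-/- cells (adjusted p = 0.145) and 5.05 ± 0.25 in wild-type cells (adjusted p = 7e-05).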

How the data were processed

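TPM values per gene were deposited by the authors, made with Salmon 0.8.2 on hg38 after base calling with CASAVA 1.7, per the submitters' processing notes. The sources used here do not say which gene annotation was used or whether strand was. TPM keeps no read numbers, so depth and the precision it gives are unknown. The table held 0 columns of other series. Libraries were grouped by genotype and day from their labels, 2 in each of 6 groups.

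Tested were the 24248 genes, all 583 members among them, that reached 1 TPM in 2 or more libraries, on log2(TPM + 1), which understates changes of low genes, with limma 3.58.1 in R 4.3.3: a mean per group over 12 libraries, 6 residual degrees of freedom, variances moderated with a trend, two-sided tests, Benjamini-Hochberg adjustment per comparison, threshold 0.05. The fit was tested on simulated data. Comparisons were genotype at each day, day steps within genotype, and differences of the genotype effect between days.

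Members and lists were chosen with earlier results of these data known. Named were all members called between genotypes, the largest day steps, the 8 best expressed, listed lincRNAs and those at the threshold; a pair of listings of one pseudoautosomal gene is not reported, and RMRP's promoter was passed over after its values were seen. Positions and neighbours came from GENCODE v29 on GRCh38, matched by gene ID without version to 576 members (534 with version). One neighbouring gene is not reported here, and its pair was left out of the counts. Promoter and microRNA sequences came from RefSeq GRCh38.p14. As alternatives, the pseudocount was set to 0.1, the filter to TPM 5 or none, and median-of-ratios scaling, quantile normalization, rescaling to nuclear protein-coding genes, no trend, a replicate block, only the days compared and each library left out were tried.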

Additional observations from a re-analysis of the deposited data

Results flagged for a closer look

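For 12 tests over 11 lincRNAs the genotype difference itself differed between days, by limma's test of the interaction (adjusted p under 0.05, beside 0.408% of all genes tested between days 0 and 4 and 1.11% between days 4 and 8). From day 0 to day 4 the difference moved for CTD-2147F2.1, by -1.53 ± 0.22 on the log2 scale (adjusted p = 0.0381), and from day 4 to day 8 it moved back by 1.60 ± 0.22 (0.0225). From day 4 to day 8 it moved downward for LINC01551 (-4.49 ± 0.36, adjusted p = 0.00367), LINC00354 (-2.95 ± 0.52, 0.0456), DIO3OS (-2.53 ± 0.28, 0.0105) and RP11-54O7.16 (-2.53 ± 0.34, 0.0203). It moved upward for MIAT (3.03 ± 0.48, adjusted p = 0.0351), RP11-299H22.6 (1.92 ± 0.29, 0.0288) and KC6 (1.11 ± 0.20, 0.0493). KC6 had 12.9 and 12.4 TPM in SOX21-/- cells at day 4, against 19.8 and 20.3 TPM in wild-type cells, and 73.2 and 68.9 TPM in SOX21-/- cells at day 8, against 57.4 and 44.1 TPM in wild-type cells. For RMRP (-4.73), LINC01210 (2.76) and RP11-159D12.11 (2.84), which were listed at 0 in all other groups, the fitted values depend on the pseudocount. The number changed between days 4 and 8 was 3 without WT1 or WT2 of day 4, 4 without S13 of day 4, 5 without WT2 of day 8, 6 without S23 of day 8 or either SOX21-/- library of day 0, and 7 without either wild-type library of day 0.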

How the results depend on the processing

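Over 92 results followed by name, 0 of 1926 alternative values reversed in direction and 409 lost a call. Of 48 day steps, 35 kept their call under every alternative, of 12 interactions 0 did, and the causes were not tested. The number of members called moved by 1.5 times or more as follows. For day 0 (0 called), it was 2 with a pseudocount of 0.1, 2 with median-of-ratios scaling, 1 with quantile normalization and 5 with only the day compared. For day 4 (6 called), it was 3, 1, 1 and 0 under the same settings, and 4 unfiltered or rescaled to nuclear protein-coding genes. For day 8 (26 called), it was 15 with a pseudocount of 0.1 and 0 with only that day. For day 8 against day 4 it was 49 and 52 in wild type with the pseudocount of 0.1 and with only those days, and in SOX21-/- 130, 126 and 138 with median-of-ratios scaling, quantile normalization and only those days. For the interaction of days 0 and 4 (1 called), it was 2 unfiltered, 0 with quantile normalization and 2 without the trend. For that of days 4 and 8 (11 called), it was 6 with the pseudocount of 0.1, 7 filtered at TPM 5, 6 with median-of-ratios scaling and 3 with only those days. Fewer libraries in the fit also leave fewer degrees of freedom.

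With each library left out, the count ran from 0 to 1 at day 0, 0 to 7 at day 4 and 12 to 30 at day 8. For day 4 against day 0 it ran from 357 to 416 in SOX21-/- and 405 to 470 in wild type, and for day 8 against day 4 from 116 to 207 and 32 to 102. For the interactions it ran from 0 to 1 and from 3 to 12.

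Over all genes tested, the difference between S13 and S23, or between WT1 and WT2, was compared from day to day, with correlations of -0.006 to 0.0712. A difference between replicate labels held by few genes would not show in these values. They therefore cannot say whether the labels pair the libraries. With the replicate block the count was 0 at day 4, 20 at day 8, and 0 and 1 for the interactions. TPM gives low values no known counting error.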
